A study of Mus musculus with 224 samples.

Results

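The cytosolic and mitochondrial heat shock proteins were described across 5 brain regions of mice exposed to ethanol vapor, ethanol drinking, both or neither. The set held 10 listed genes, Hsp90aa1, Hsp90ab1, Hspa1a, Hspa1b, Hspa8, Dnajb1, Hsph1, Hspb1, Hspd1 and Hspe1, and its members were the probesets whose gene symbol on the array platform is one of these. This gave 22 probesets of 9 genes among 45037 probesets on the arrays, of which 34945 carried a single gene symbol. No probeset carried the symbol Hsp90ab1, and it was not analysed here. Hsp90aa1 had 5 probesets, Hspa8 had 4, Hspa1b had 3, Hspa1a and Hspd1 had 1 each, and Dnajb1, Hsph1, Hspb1 and Hspe1 had 2 each.

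Heat shock proteins are chaperones that keep other proteins folded. In the cytosol, Hsp70 proteins such as the constitutive Hspa8 and the stress-inducible Hspa1a and Hspa1b bind unfolded chains, J-domain partners such as Dnajb1 bring them substrates, Hsph1 acts as a nucleotide exchange factor, and Hsp90aa1 finishes the folding of kinases and receptors. Hspb1 is a small heat shock protein that holds unfolding proteins, and Hspd1 with its lid Hspe1 forms the folding chamber of the mitochondrial matrix. Under stress, heat shock factor 1 binds short inverted repeats of GAA in the promoters of many of these genes and raises their transcription.

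All mice were C57BL/6J males bought at 10 weeks of age, and RNA of the central nucleus of the amygdala (CeA), bed nucleus of the stria terminalis (BNST), hippocampus (HPC), nucleus accumbens (NAC) and prefrontal cortex (PFC) went onto separate Affymetrix mouse arrays. CIE Drinking mice received chronic intermittent ethanol (CIE) vapor and had a 2-bottle choice of 15% (v/v) ethanol or water for 2 h a day between cycles, CIE NonDrinking mice received the vapor with water alone, Air Drinking mice received air and the ethanol choice, and Air NonDrinking mice received air and water. Each of 4 cycles kept the mice in chambers for 16 h daily over 4 days, followed by 72 h without ethanol, and both drinking groups had first drunk for 6 weeks to set a baseline. Injections before the chambers held 1 mmol/kg pyrazole, an inhibitor of alcohol dehydrogenase, in all 4 groups, air controls included, and also 1.6 g/kg ethanol in both CIE groups. By the study's account, the drinking groups had been without ethanol for less than a day at sacrifice and CIE NonDrinking mice for about a week, so that drinking and time since the last ethanol cannot be told apart.

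There were 43 arrays of the CeA, 45 of the BNST, 42 of the HPC, 47 of the NAC and 47 of the PFC, carrying 51 different mouse numbers, with 8 to 12 arrays in a group. Values are log2 signal intensities that the authors normalized within each region. The median array stood at 6.11 in the PFC and between 6.85 and 7.04 elsewhere, so levels were not compared between regions except as percentiles of the probesets of 1 region. Pairs of arrays of a region correlated at r = 0.950 to 0.999 over all probesets, with the lowest value in the CeA. In ethanol-naive mice the markers of each region's own neurons had a median percentile of signal of 89.7 in the CeA, 97.2 in the BNST, 83.3 in the HPC, 95.9 in the NAC and 77.2 in the PFC. These lists did not set each region apart, since the BNST markers stood at 92.7 in the CeA, 96.4 in the NAC and 89.1 in the PFC, and the striatal markers at 78.9 in the PFC. Markers of the choroid plexus stood at a median percentile of 94.3 in the CeA, against 22.0 to 26.9 in the other regions. In dissected tissue, fewer cells of a type and less RNA per cell cannot be told apart.

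Promoter sequence carries the element through which these genes are known to respond, so it is shown for the 2 inducible Hsp70 genes and for the mitochondrial pair. RefSeq windows of build GRCm38.p6, from 250 bases before to 50 after a transcription start, were given for 7 of the 10 genes, and only the 250 bases before the start are printed. Both inducible genes lie on the minus strand of chromosome 17, Hspa1a with the stretch at chr17:34972157-34972406 and Hspa1b with that at chr17:34959239-34959488. Capitals mark the inverted repeat GAANNTTC, whose first base lies at position −104 from the start in both:
Hspa1a: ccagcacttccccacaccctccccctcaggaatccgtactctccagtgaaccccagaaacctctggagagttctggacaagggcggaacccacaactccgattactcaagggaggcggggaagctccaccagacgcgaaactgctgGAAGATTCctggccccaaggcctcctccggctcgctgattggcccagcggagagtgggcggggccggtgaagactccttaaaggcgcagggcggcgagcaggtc
Hspa1b: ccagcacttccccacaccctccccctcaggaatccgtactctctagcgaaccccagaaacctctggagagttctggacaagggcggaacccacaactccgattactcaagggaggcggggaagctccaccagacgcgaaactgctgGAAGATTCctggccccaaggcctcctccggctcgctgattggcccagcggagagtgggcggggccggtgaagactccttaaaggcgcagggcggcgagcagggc
The stretches shared 247 of 250 bases. Counted from 1 at the 5′ end of the stretch and with the base of Hspa1a first, the differences were C44T, T47C and T249G. GAANNTTC, searched on both strands, was present in 7.86% of all 32851 promoter windows.

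Hspd1 and Hspe1 lie head to head on chromosome 1 and share their promoter. Hspe1 starts at position 55088148 on the plus strand. The listed starts of Hspd1 on the minus strand are 55087932 and 55088243, which lie 216 and 95 bases from it on opposite sides. From the first the genes lie head to head, whereas a transcript from the second runs across the start of Hspe1 and the stretch below. A stretch of 30 bases at chr1:55088053-55088082, plus strand, held TTCNNGAA, GAANNTTC and TTCNNGAA one after the other with shared bases, shown in capitals:
Hspe1: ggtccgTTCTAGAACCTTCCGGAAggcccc
A longer repeat, GAANNTTC followed by NNGAA, was found on either strand in 0.603% of all windows, and TTCNNGAA in 8.52%. The window of Hspb1 held GAANNTTC alone, at positions −117 and −97. The windows of Hsph1 held TTCNNGAA, GAANNTTC and the longer repeat, the last after the start, from position 16 or 37. Neither window of Dnajb1 held any of these letters, nor did the window of the Hspd1 start at 55088243. A match of letters is a description and not a binding site.

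The 4 groups were compared pairwise in each region with LIMMA as Comparison 1 (CIE Drinking vs. Air Drinking), 2 (CIE NonDrinking vs. Air NonDrinking), 3 (CIE Drinking vs. CIE NonDrinking), 4 (CIE Drinking vs. Air NonDrinking), 5 (CIE NonDrinking vs. Air Drinking) and 6 (Air Drinking vs. Air NonDrinking). A difference counted as called where its p, adjusted over all probesets of the region, was at most 0.01. Over 22 probesets, 5 regions and 6 comparisons, 11 of 660 differences were called (1.67%, against 0.768% over all probesets), 8 of them higher and 3 lower in the group named first. They fell on 3 genes, with 8 calls for Hsp90aa1, 2 for Hspa8 and 1 for Hspd1. No call was made for Hspa1a, Hspa1b, Dnajb1, Hsph1, Hspb1 or Hspe1, and 94 of the 660 differences (14.2%) had an unadjusted p under 0.05, the same share as over all probesets (14.2%). Comparisons 1, 3 and 4 share the CIE Drinking arrays, so their calls are not independent of each other.

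**Figure D1:**
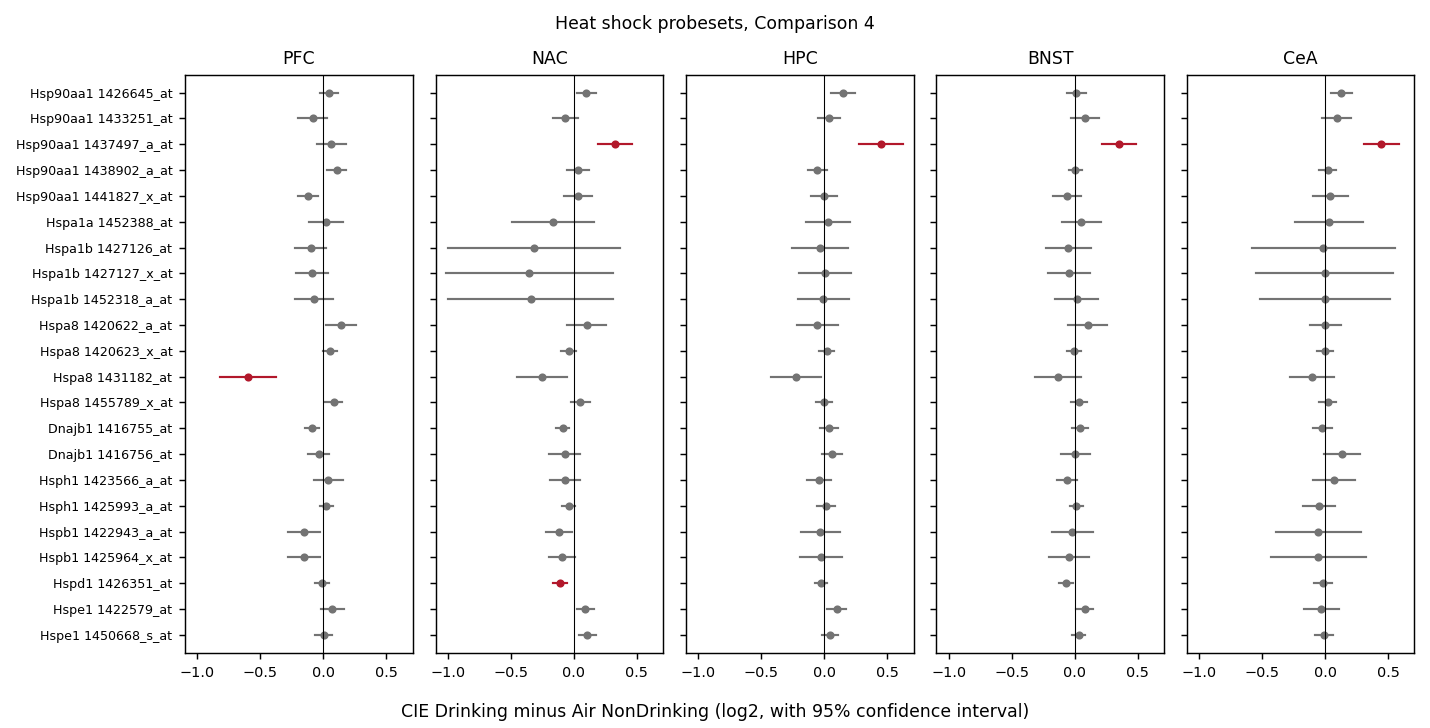
Log2 difference of CIE Drinking minus Air NonDrinking for each member probeset in each brain region, with its 95% confidence interval, red where LIMMA called it. The Hsp90aa1 probeset 1437497_a_at lies at 0.33 to 0.45 in the NAC, HPC, BNST and CeA, and the Hspa8 probeset 1431182_at lies at −0.60 in the PFC.

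Hsp90aa1, the inducible cytosolic Hsp90, was higher in CIE Drinking mice in 4 regions, as read by its probeset 1437497_a_at. In the CeA this probeset measured 12.24, 12.33 and 12.54 (lowest, median and highest log2 value) in CIE Drinking mice, 11.61, 11.96 and 12.19 in CIE NonDrinking mice, 11.65, 12.05 and 12.32 in Air Drinking mice and 11.75, 11.96 and 12.03 in Air NonDrinking mice. The CIE Drinking arrays lay above every array of both NonDrinking groups, and the Air Drinking arrays reached into their range. Comparison 4 gave a difference of 0.44 (SE 0.069, LIMMA adjusted p = 8.86e-05), Comparison 3 gave 0.39 (adjusted p = 0.000173) and Comparison 1 gave 0.34 (adjusted p = 0.00444). Of all probesets in the CeA, 1.86% were called in Comparison 4, 1.64% in Comparison 3 and 0.177% in Comparison 1. Groups without overlap occurred in 0.566% of probesets in Comparison 4 and in 0.223% in Comparison 3.

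In the BNST, 1437497_a_at measured 12.31, 12.48 and 12.58 in CIE Drinking mice, 11.83, 12.23 and 12.39 in CIE NonDrinking mice, 11.88, 12.16 and 12.45 in Air Drinking mice and 11.87, 12.08 and 12.30 in Air NonDrinking mice. All CIE Drinking arrays again lay above all Air NonDrinking arrays, which held for 0.308% of probesets. The Hsp90aa1 difference was 0.35 in Comparison 4 (SE 0.068, LIMMA adjusted p = 0.00142) and 0.29 in Comparison 1 (adjusted p = 0.00765), where 1.22% and 0.943% of all probesets were called. Comparison 3 gave 0.29 and missed the threshold (adjusted p = 0.0143). With only the 2 groups in the fit, Comparison 1 missed it too, in the BNST (adjusted p = 0.0209) and in the CeA (adjusted p = 0.0196), and in the BNST also with the neuron markers as a covariate (0.28, adjusted p = 0.0286).

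In the NAC, Hsp90aa1 1437497_a_at measured 11.99, 12.33 and 12.41 in CIE Drinking mice, 11.76, 12.07 and 12.27 in CIE NonDrinking mice, 11.58, 12.13 and 12.32 in Air Drinking mice and 11.79, 11.98 and 12.12 in Air NonDrinking mice. In the HPC it measured 11.82, 12.09 and 12.25 in CIE Drinking mice, 11.45, 11.79 and 12.02 in CIE NonDrinking mice, 11.15, 11.78 and 12.18 in Air Drinking mice and 11.38, 11.66 and 11.85 in Air NonDrinking mice. CIE Drinking had the highest median in both regions, with overlap between all groups. Comparison 4 was called in the NAC at 0.33 (SE 0.067, LIMMA adjusted p = 0.00102) and in the HPC at 0.45 (SE 0.088, adjusted p = 0.000661), where 2.71% and 3.63% of all probesets were called. Of 5 microglial markers, all measured, Cx3cr1 was called higher in Comparison 4 in the same regions, at 0.23 in the NAC (adjusted p = 0.00489) and 0.34 in the HPC (adjusted p = 0.00309). The mean of the 5 was 9.97 to 10.31 in CIE Drinking and 10.03 to 10.18 in Air NonDrinking arrays of the NAC, and 10.04 to 10.40 and 10.03 to 10.42 in the same groups of the HPC, and its part in the Hsp90aa1 result was not tested. Comparison 1 gave 0.34 in the HPC (adjusted p = 0.0103) and 0.22 in the NAC (adjusted p = 0.0627), and neither was called.

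In the PFC no comparison was called for this probeset. Hsp90aa1 1437497_a_at measured 12.32, 12.61 and 12.70 in CIE Drinking mice, 12.20, 12.44 and 12.55 in CIE NonDrinking mice, 12.22, 12.58 and 12.68 in Air Drinking mice and 12.07, 12.61 and 12.73 in Air NonDrinking mice, with overlap throughout. Comparison 4 gave 0.06 (SE 0.058, LIMMA adjusted p = 0.485). The difference of Comparison 4 itself between regions was called for the PFC against the HPC, at −0.39 (SE 0.10, adjusted p = 0.00636), and for the PFC against the CeA, at −0.38 (adjusted p = 0.00919), in a LIMMA fit of all 5 regions in which 3.28% and 2.24% of probesets were called. It was not called for the PFC against the BNST, at −0.29 (adjusted p = 0.0732), or against the NAC, at −0.26 (adjusted p = 0.217). With hippocampal neuron markers as a covariate, chosen after the data were seen, the values were −0.36 (adjusted p = 0.0229) and −0.38 (adjusted p = 0.0118), and with quantile normalization over all regions the PFC against the CeA gave −0.37 (adjusted p = 0.0126). Among arrays of the same group, 1437497_a_at moved with the general neuron markers in the PFC at r = 0.81 (rho = 0.78, r = 0.78 without the 2 farthest arrays, permutation p = 1e-05, adjusted p = 0.000227, n = 47). The relation also passed in the NAC, at r = 0.45 (rho = 0.41, r = 0.44 without the 2 farthest, permutation p = 0.00424, adjusted p = 0.0261). It had r = −0.19 in the CeA, 0.05 in the BNST and 0.31 in the HPC, none past the threshold, and the difference of these values between regions was not tested. The 5 neuron markers, all measured, averaged 12.97 to 13.04 in CIE Drinking, 12.92 to 13.14 in CIE NonDrinking, 12.92 to 13.14 in Air Drinking and 12.86 to 13.09 in Air NonDrinking arrays of the PFC. With their mean as a covariate, chosen after the data were seen, 1437497_a_at was called in the PFC in Comparison 3 at 0.23 (LIMMA adjusted p = 2.55e-05) and in Comparison 2 at −0.22 (adjusted p = 0.000179), and Comparison 4 gave 0.01 (adjusted p = 0.84). Without the covariate Comparison 3 gave 0.18 (adjusted p = 0.0526).

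**Figure D2:**
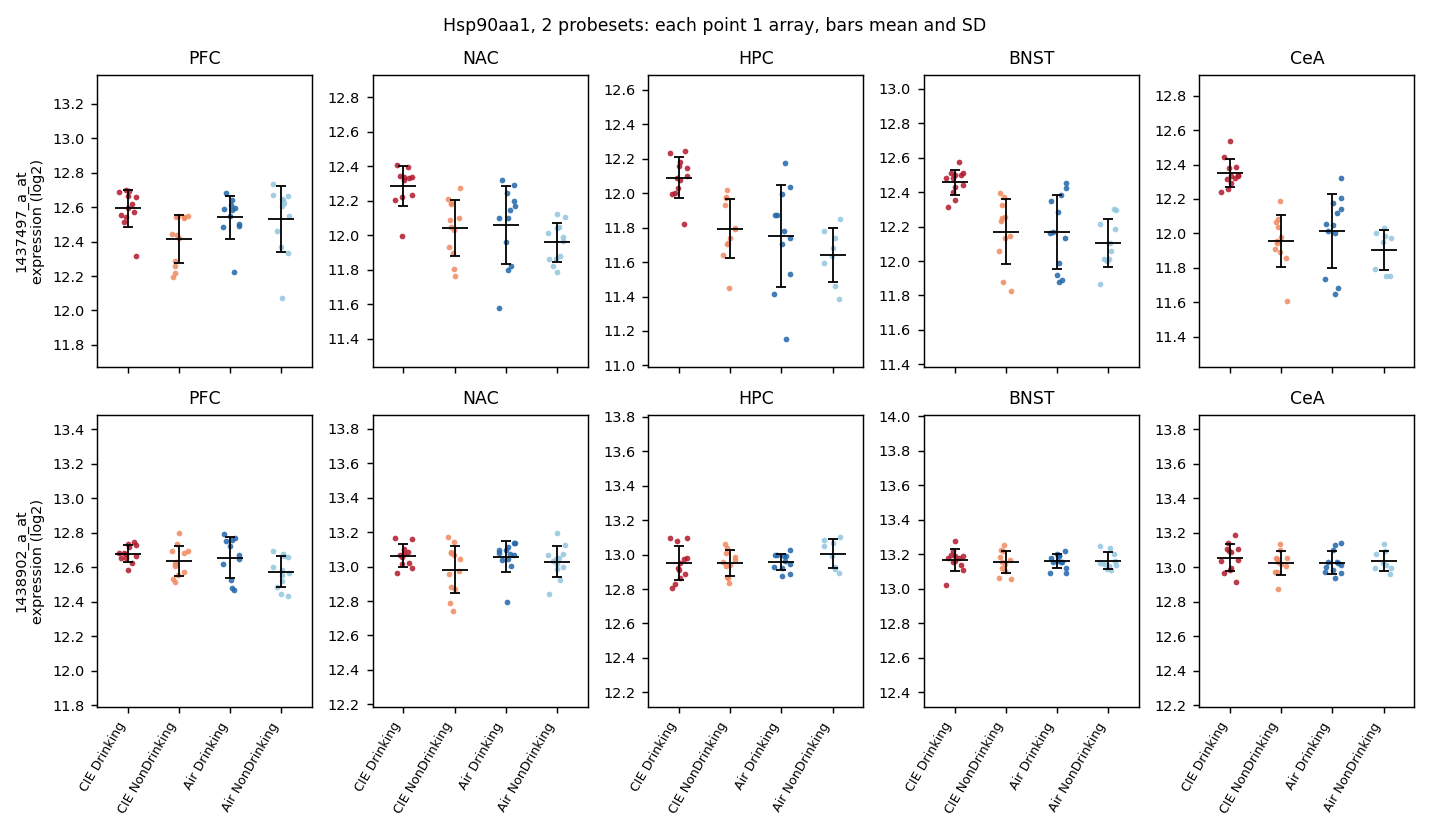
Log2 signal of the Hsp90aa1 probesets 1437497_a_at (top) and 1438902_a_at (bottom) in every array, by brain region and treatment group, with the group mean and SD. In the top CeA panel the CIE Drinking arrays lie between 12.24 and 12.54, above all Air NonDrinking arrays, and in the PFC the groups overlap.

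The comparisons that leave CIE Drinking out held small differences. Over Comparisons 2, 5 and 6 in 5 regions, 1437497_a_at differed by −0.13 to 0.15, with a smallest LIMMA adjusted p of 0.253 over the 15 values. Written as 2 factors, drinking was called in the CeA at 0.25 (adjusted p = 0.00171), a term called for 1.14% of probesets there. The vapor term in the CeA was 0.19 (adjusted p = 0.0886) and the interaction 0.28 (adjusted p = 0.235). In the HPC the vapor term of Hsp90aa1 was 0.24 and missed the threshold (adjusted p = 0.013). No interaction of vapor and drinking was called for any member. The only member terms called were drinking for Hsp90aa1 in the CeA and for Hspa8 in the PFC. The drinking term was called for 1.14% of probesets in the CeA and 1.35% in the PFC. The share of all probesets over all regions and terms was not computed.

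The other Hsp90aa1 probesets moved less, and with the 5 averaged only the CeA kept a call, in Comparisons 3 (0.15) and 4 (0.14). The bright probeset 1426645_at was higher in the CeA in Comparison 3 by 0.16 (SE 0.0366, LIMMA adjusted p = 0.00519), and its Comparison 4 difference was 0.13 in the CeA, 0.01 in the BNST, 0.15 in the HPC, 0.10 in the NAC and 0.04 in the PFC, none of them called. The equally bright 1438902_a_at differed by −0.07 to 0.10 over all regions and comparisons (smallest adjusted p = 0.0709). After removal of group means, 1437497_a_at moved with 1426645_at at r = 0.49 in the CeA, 0.51 in the BNST, 0.69 in the HPC, 0.72 in the NAC and 0.18 in the PFC, and with 1438902_a_at at r = 0.15, 0.03, 0.36, 0.13 and 0.44 in the same order. These 3 probesets lay above the 96.7th percentile of signal in every region. The remaining 2 were dim, with 1433251_at between the 30.4th and 37.1st percentile and 1441827_x_at between the 10.7th and 21.3rd, and neither was called.

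Hspa8, the constitutive Hsp70 that also uncoats clathrin vesicles, was lower in drinking mice in the PFC by 1 of its 4 probesets. In the PFC 1431182_at measured 6.26, 6.45 and 6.84 in CIE Drinking mice, 6.37, 6.74 and 7.29 in CIE NonDrinking mice, 6.21, 6.44 and 6.80 in Air Drinking mice and 6.35, 7.08 and 7.73 in Air NonDrinking mice. Both drinking groups lay low, Air NonDrinking arrays were highest and most spread, and all groups overlapped. Hspa8 was lower by 0.60 in Comparison 4 (log2 difference −0.60, SE 0.111, LIMMA adjusted p = 0.0022) and by 0.62 in Comparison 6 (log2 difference −0.62, SE 0.114, adjusted p = 0.000818), where 0.722% and 1.4% of all probesets were called. Among the 4 measured excitatory cortex markers, Cux2 and Rorb were called higher in the PFC in Comparison 6, at 0.74 (adjusted p = 0.00232) and 0.59 (adjusted p = 0.00287), and none was called in Comparison 4. The mean of the 4 was 8.56 to 8.98 in CIE Drinking, 8.82 to 9.14 in Air Drinking and 8.29 to 8.84 in Air NonDrinking arrays, and within groups Hspa8 1431182_at correlated with it at r = −0.03 (rho = 0.11, r = −0.05 without the 2 farthest, adjusted permutation p = 0.938). The drinking term of Hspa8 was −0.46 (SE 0.079, adjusted p = 0.00067), a term called for 1.35% of probesets. Comparisons 2, 3 and 5 gave −0.30, −0.30 and 0.32 (adjusted p = 0.104, 0.0921 and 0.109) and Comparison 1 gave 0.02.

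Outside the PFC, 1431182_at differed by −0.25 to 0.15 over 24 comparisons (smallest LIMMA adjusted p = 0.132). The difference of Comparison 6 itself between the PFC and another region was not called for this probeset. The PFC minus the NAC gave −0.46 (LIMMA adjusted p = 0.153), minus the HPC −0.55 (0.0466), minus the BNST −0.52 (0.0569) and minus the CeA −0.59 (0.0206). A response particular to the PFC was thus not shown. The other 3 Hspa8 probesets were not called anywhere, and in the PFC they gave 0.14, 0.05 and 0.08 in Comparison 4 for 1420622_a_at, 1420623_x_at and 1455789_x_at. Those 3 lay above the 95.2nd percentile of signal, whereas 1431182_at lay between the 56.8th and 61.7th. Among arrays of the same group, 1431182_at correlated with the other Hspa8 probesets at r = −0.24 to 0.16, and these correlated with each other at r = 0.31 to 0.82. With the 4 probesets averaged, the PFC gave −0.08 in Comparison 4 (LIMMA adjusted p = 0.159) and −0.13 in Comparison 6 (adjusted p = 0.0362), neither called. With only the 2 groups in the fit, 1431182_at missed the threshold as well, at adjusted p of 0.0165 and 0.0122. Which Hspa8 transcript it reads was not tested.

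**Figure D3:**
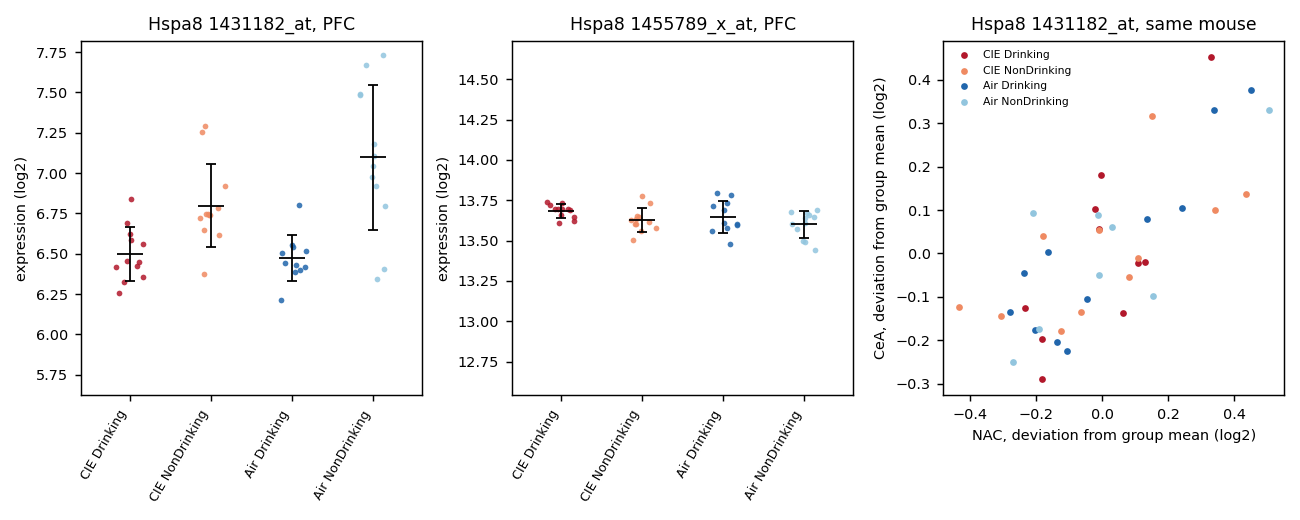
Log2 signal of the Hspa8 probesets 1431182_at and 1455789_x_at by treatment group in the PFC with group mean and SD, and the deviation of 1431182_at from the group mean in the CeA (vertical) against that in the NAC (horizontal) of the same mouse number. For 1431182_at the drinking groups of the PFC lie low, with medians of 6.45 in CIE Drinking and 6.44 in Air Drinking mice, and the deviations of the same mouse number rise together at r = 0.75.

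Of 12 immediate early genes, which neurons switch on within minutes of activity, all were measured and 2 were called in the PFC in these comparisons, both lower. Btg2 was lower in Comparison 4 by 0.85 (log2 difference −0.85, LIMMA adjusted p = 0.0021) and in Comparison 6 by 0.72 (log2 difference −0.72, adjusted p = 0.0046), and Npas4 was lower in the same comparisons by 0.75 (−0.75, adjusted p = 0.00851) and 0.82 (−0.82, adjusted p = 0.00365). Btg2 was also lower in Comparison 2, between groups that did not drink, by 0.73 (log2 difference −0.73, adjusted p = 0.00349), where 1.26% of all probesets were called and Hspa8 was not. The median of the 12 in Comparison 4 in the PFC was −0.50, against −0.01 over all probesets. The mean of the 12 was 7.64 to 8.73 in CIE Drinking, 7.97 to 8.45 in CIE NonDrinking, 7.90 to 8.51 in Air Drinking and 7.99 to 9.29 in Air NonDrinking arrays. Hspa8 1431182_at correlated with it across PFC arrays after removal of group means at r = 0.42 (rho = 0.36, r = 0.27 without the 2 farthest arrays, permutation p = 0.0153, adjusted p = 0.0653, n = 47), and the part of these genes in the Hspa8 result was not tested.

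The level of 1431182_at correlated between regions with the same mouse number outside the PFC. With group means removed, its deviations in the NAC and the CeA correlated at r = 0.75 over 40 mice (rho = 0.70, r = 0.68 without the 2 farthest, permutation p = 1e-05, adjusted p = 0.0022), where the p is the smallest that 100000 permutations can give. The NAC and the HPC gave r = 0.65 (rho = 0.65, r = 0.57 without the 2 farthest, permutation p = 2e-05, adjusted p = 0.0022), and the NAC and the BNST gave r = 0.60 (rho = 0.57, r = 0.57 without the 2 farthest, permutation p = 0.0001, adjusted p = 0.00733). For the HPC and the CeA the value was r = 0.54 (rho = 0.58, r = 0.52 without the 2 farthest, permutation p = 0.00111, adjusted p = 0.0471). The other pairs without the PFC gave r = 0.53 for the BNST and the CeA (rho = 0.44, adjusted permutation p = 0.055) and 0.38 for the HPC and the BNST (rho = 0.37, adjusted permutation p = 0.238).

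Whether a number marks the same mouse in every region was not tested, and the labels hold 51 numbers where the study's methods describe 4 groups of 12 mice. The 4 pairs that include the PFC gave r = −0.18 to 0.14 for this probeset (smallest permutation adjusted p = 0.708). Over all 22 probesets and 10 pairs of regions, 220 such relations were computed on 38 to 44 mice, and 7 passed an adjusted p of 0.05. All 7 were positive, and none was among the 88 relations that involve the PFC. Such relations were not computed for other probesets, so these counts have no share over all probesets beside them. Beside Hspa8, they were Hspb1 1425964_x_at between the NAC and the BNST (r = 0.51, rho = 0.53, r = 0.43 without the 2 farthest, permutation p = 0.0015, adjusted p = 0.0471) and Dnajb1 1416755_at between the HPC and the BNST and between the HPC and the CeA. The Dnajb1 values were r = 0.53 (r = 0.45 without the 2 farthest, adjusted permutation p = 0.0379) and 0.47 (r = 0.42 without the 2 farthest, adjusted permutation p = 0.0471), and by rank they missed the threshold, at rho = 0.41 and 0.39 (adjusted permutation p = 0.196 each).

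Hspa1a and Hspa1b, the inducible Hsp70 genes, varied widely between mice in the NAC and the CeA. The SD of the Hspa1b probeset 1452318_a_at within groups was 0.81 in the NAC, at the 99.8th percentile of all probesets, and 0.58 in the CeA, at the 97.1st, against 0.20 in the BNST, 0.22 in the HPC and 0.19 in the PFC. In the NAC it measured 8.0, 8.22 and 8.71 in CIE Drinking mice, 7.63, 8.57 and 10.52 in CIE NonDrinking mice, 8.0, 9.25 and 10.86 in Air Drinking mice and 7.74, 8.40 and 10.82 in Air NonDrinking mice. The CIE Drinking arrays stayed at the low end, while each of the other groups spanned more than 2 log2 units. In the CeA it measured 8.78, 10.11 and 10.74 in CIE Drinking mice, 8.44, 9.71 and 10.58 in CIE NonDrinking mice, 8.37, 9.72 and 10.59 in Air Drinking mice and 9.17, 10.23 and 10.60 in Air NonDrinking mice, with wide ranges in all groups.

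No comparison within a region was called for either gene. In Comparison 1, 1452318_a_at differed by −0.87 in the NAC (95% interval −1.53 to −0.22, LIMMA adjusted p = 0.15) and by 0.54 in the CeA (0.08 to 1.0, adjusted p = 0.237), and 1452388_at, the probeset of Hspa1a, by −0.34 and 0.22. The difference between the NAC and the CeA in Comparison 1 was called for all 3 Hspa1b probesets, at −1.51 for 1427126_at (adjusted p = 0.000212), −1.52 for 1427127_x_at (adjusted p = 0.000109) and −1.41 for 1452318_a_at (adjusted p = 0.000278), where 2.05% of probesets were called. The 3 probesets read 1 gene and are not independent.

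**Figure D4:**
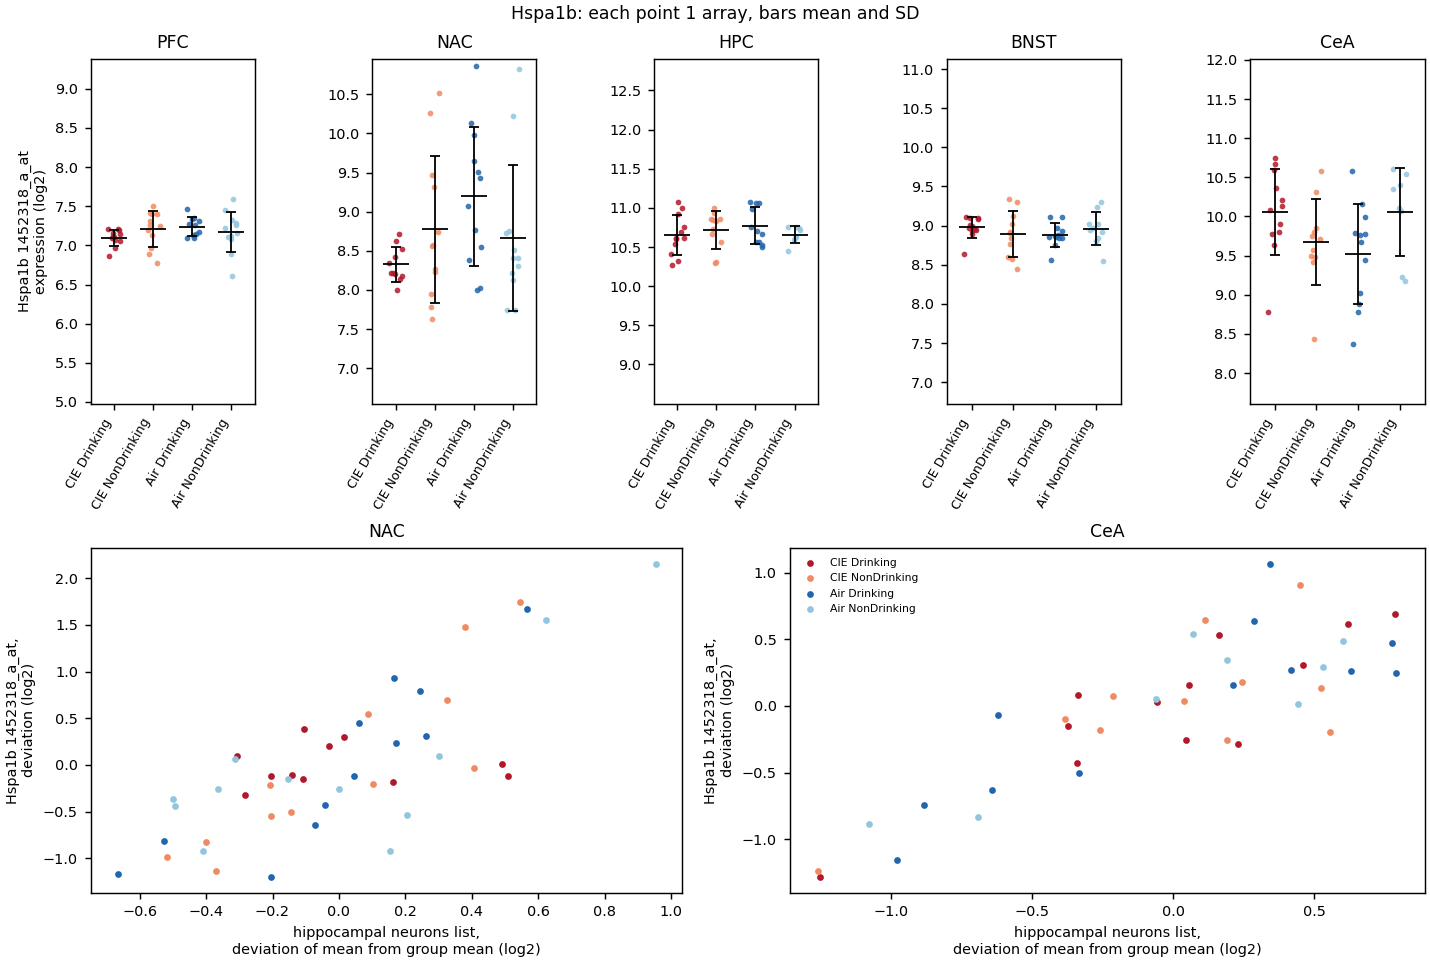
Log2 signal of the Hspa1b probeset 1452318_a_at by brain region and treatment group with group mean and SD (top, axes of equal length), and below its deviation from the group mean against that of the hippocampal neuron markers in the NAC and the CeA. The widest groups are in the NAC, up to 10.86, and the CeA, and Hspa1b rises with the markers at r = 0.77 in the NAC and 0.83 in the CeA.

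In the NAC and the CeA, Hspa1b rose with markers of hippocampal and excitatory cortex neurons and fell with those of striatal projection neurons. Over NAC arrays with group means removed, 1452318_a_at correlated with 5 hippocampal neuron markers at r = 0.77 (rho = 0.72, r = 0.69 without the 2 farthest), with the 4 measured markers of excitatory cortex at r = 0.80 (rho = 0.77, r = 0.74 without the 2 farthest) and with 4 markers of striatal projection neurons at r = −0.73 (rho = −0.67, r = −0.71 without the 2 farthest). In the CeA the same lists gave r = 0.83 (rho = 0.74, r = 0.77 without the 2 farthest), 0.61 (rho = 0.52, r = 0.59 without the 2 farthest) and −0.75 (rho = −0.67, r = −0.65 without the 2 farthest). Adjusted permutation p was 0.000876 for excitatory cortex in the CeA and 0.000227 for the other 5, among 1430 relations of a probeset with a list, 293 of which passed 0.05.

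The levels of these markers overlapped between the groups. The 5 hippocampal markers averaged 6.27 to 7.09 in CIE Drinking, 6.32 to 7.39 in CIE NonDrinking, 6.41 to 7.64 in Air Drinking and 6.28 to 7.73 in Air NonDrinking arrays of the NAC, and 6.97 to 9.01, 6.53 to 8.35, 6.60 to 8.36 and 6.91 to 8.59 in the same groups of the CeA, with no value at 0. In Comparison 1 the median difference of the hippocampal markers was −0.08 in the NAC and 0.58 in the CeA, and that of the excitatory cortex markers −0.67 in the NAC and 0.12 in the CeA, with no single marker called there. With the hippocampal markers as a covariate, chosen after the data were seen, the NAC-to-CeA difference of Hspa1b was −0.03, −0.10 and −0.04 for 1427126_at, 1427127_x_at and 1452318_a_at (LIMMA adjusted p = 0.98, 0.913 and 0.973). With the excitatory cortex markers it was −0.44, −0.48 and −0.40 (adjusted p = 0.427, 0.363 and 0.445).

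Hspa1a followed Hspa1b closely. Their probesets correlated after removal of group means at r = 0.89 to 0.99 in the CeA, 0.76 to 0.88 in the BNST, 0.85 to 0.96 in the HPC, 0.93 to 0.99 in the NAC and 0.43 to 0.78 in the PFC. The coding parts of the 2 genes are known to be nearly identical, so that probes may read both, and the genes cannot be told apart with certainty. The signal of 1452318_a_at lay at the 90.8th percentile in the HPC, its highest, and at the 61.7th in the PFC, its lowest.

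Dnajb1, the J-domain partner that stimulates Hsp70, differed little, by −0.14 to 0.14 over its 2 probesets, all regions and all comparisons (smallest LIMMA adjusted p = 0.0247). In the PFC 1416755_at measured 10.48, 10.58 and 10.67 in CIE Drinking mice and 10.62, 10.66 and 10.80 in Air Drinking mice, and in the BNST it measured 11.05, 11.21 and 11.29 in CIE Drinking mice and 11.04, 11.10 and 11.22 in Air Drinking mice. CIE Drinking lay lower in the PFC and higher in the BNST, with overlap in both. Comparison 1 gave −0.10 in the PFC (adjusted p = 0.0278) and 0.07 in the BNST (adjusted p = 0.118), neither called, and the difference between these regions was called at −0.18 (SE 0.0403, adjusted p = 0.00229), as it was for 2.33% of probesets. It missed the threshold with the hippocampal markers (−0.14, adjusted p = 0.0501) or the excitatory cortex markers (−0.17, adjusted p = 0.0105) as a covariate. In all, 6 of 1320 differences between 2 regions were called for the members, each of them named here. The region pairs and comparisons that held them had 2.05% to 3.28% of all probesets called. These are only the pairs with a member call, so that range is no background for 6 of 1320. A share over all pairs and comparisons was not computed.

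Hsph1, the Hsp110 exchange factor of Hsp70, was not called in any comparison, with differences of −0.13 to 0.17 (smallest LIMMA adjusted p = 0.243). Its probeset 1425993_a_at lay between the 96.6th and 99.0th percentile of signal. Among CeA arrays of the same group it moved with the neuron markers at r = 0.90 (rho = 0.88, r = 0.86 without the 2 farthest, permutation p = 1e-05, adjusted p = 0.000227, n = 43). The SD of this probeset within groups was 0.14 in the CeA, against 0.05 to 0.07 in the other regions. The relation is given here for the CeA alone.

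Hspb1, the small heat shock protein, was not called either, with differences of −0.30 to 0.33 (smallest LIMMA adjusted p = 0.097). In the CeA 1422943_a_at measured 8.82, 9.76 and 10.37 in CIE Drinking mice, 9.56, 9.95 and 10.52 in CIE NonDrinking mice, 9.16, 9.66 and 10.07 in Air Drinking mice and 9.19, 9.66 and 10.28 in Air NonDrinking mice. No group stood apart. Its SD within groups was 0.38 in the CeA, against 0.12 to 0.19 in the other regions.

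Hspb1 moved with markers of vessels outside the CeA. After removal of group means, 1422943_a_at correlated with the 6 measured of 7 markers of endothelial cells and pericytes at r = 0.84 in the HPC (rho = 0.83, r = 0.85 without the 2 farthest, permutation p = 1e-05), 0.72 in the BNST (rho = 0.75, r = 0.71 without the 2 farthest, permutation p = 1e-05) and 0.63 in the PFC (rho = 0.59, r = 0.58 without the 2 farthest, permutation p = 5e-05), with adjusted p of 0.000227, 0.000227 and 0.000761. The NAC gave r = 0.40 (rho = 0.42, r = 0.32 without the 2 farthest, permutation p = 0.00758, adjusted p = 0.04) and the CeA r = 0.01 (adjusted p = 0.977).

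In the CeA the 5 choroid plexus markers split the arrays into separate clusters, 33 arrays with a marker mean of 11.2 to 12.9 and 10 arrays with 7.76 to 9.49. The 10 arrays were 4 of CIE Drinking, 1 of CIE NonDrinking, 3 of Air Drinking and 2 of Air NonDrinking. Hspb1 1422943_a_at deviated from its group mean by 0.15 on average in the 33 arrays and by −0.48 in the 10, and within the 33 it rose with the markers at r = 0.64 (rho = 0.63, r = 0.59 without the 2 farthest, permutation p = 7e-05, adjusted p = 0.000373 over 16 relations). Within the 10 arrays r was 0.17 (rho = 0.01, permutation p = 0.645). The mitochondrial Hspe1 probeset 1422579_at and Hsph1 1425993_a_at fell with the markers within the 33 arrays, at r = −0.67 (rho = −0.62, r = −0.58 without the 2 farthest, adjusted permutation p = 0.000373) and r = −0.50 (rho = −0.57, r = −0.45 without the 2 farthest, adjusted permutation p = 0.0131). The other Hspe1 probeset, 1450668_s_at, gave r = 0.27 (rho = 0.36, r = 0.38 without the 2 farthest, adjusted permutation p = 0.269), and the 2 Hspe1 probesets correlated at r = −0.25 over all CeA arrays (rho = −0.21, r = −0.23 without the 2 farthest, adjusted permutation p = 0.29). Hsp90aa1 1437497_a_at gave r = 0.07 within the 33 arrays and −0.10 within the 10, both short of the threshold.

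**Figure D5:**
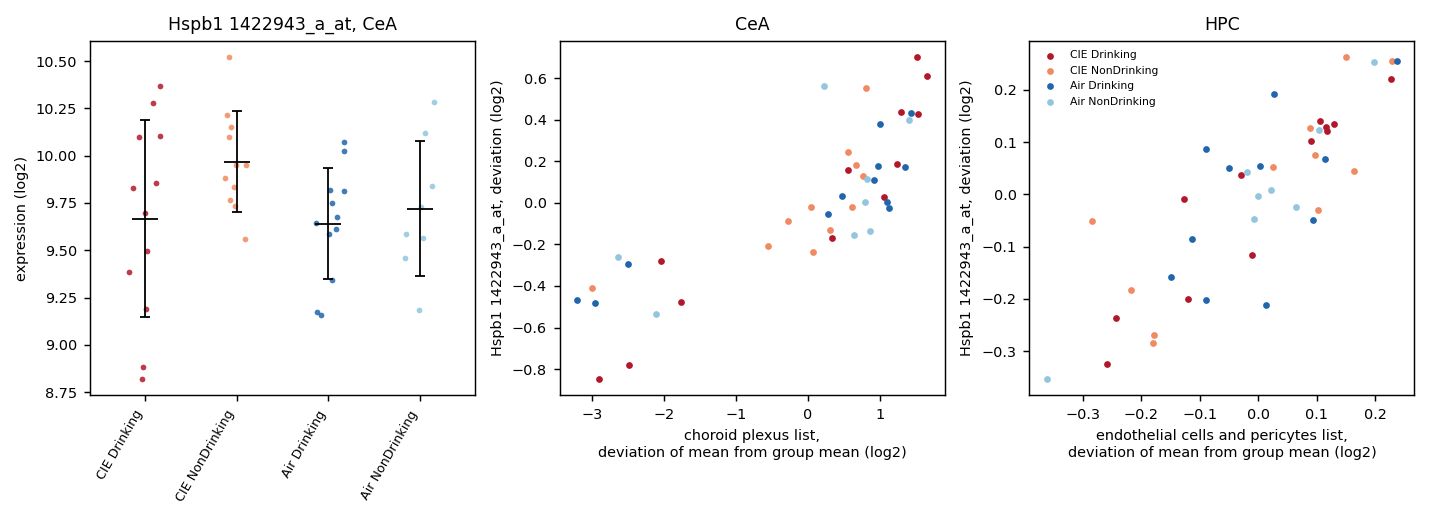
Log2 signal of the Hspb1 probeset 1422943_a_at by treatment group in the CeA with group mean and SD, and its deviation from the group mean against that of the choroid plexus markers in CeA arrays and of the markers of endothelial cells and pericytes in HPC arrays, coloured by treatment group. In the CeA 10 arrays lie apart on the left, low in the choroid plexus markers, and in the HPC the relation is r = 0.84.

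Hspd1, from its start at 55087932, and Hspe1 share the promoter shown above. Hspd1 1426351_at measured 11.61, 11.71 and 11.75 in CIE Drinking mice of the NAC, 11.61, 11.72 and 11.84 in CIE NonDrinking mice, 11.65, 11.73 and 11.86 in Air Drinking mice and 11.77, 11.79 and 11.88 in Air NonDrinking mice. Every CIE Drinking array lay below every Air NonDrinking array, which held in either direction for 0.415% of probesets. The Hspd1 difference in Comparison 4 was −0.11 (SE 0.0275, LIMMA adjusted p = 0.00649), and it was −0.02 in the CeA, −0.07 in the BNST, −0.03 in the HPC and −0.01 in the PFC, none of these called. The SD of this probeset within groups lay between the 0.468th and 3.21st percentile of all probesets. Hspe1 1450668_s_at lay between the 1.69th and 7.16th, while Hspe1 1422579_at reached the 27.7th in the PFC and the 50.1st in the CeA.

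Hspe1 was not called, with differences of −0.07 to 0.13 over both probesets (smallest LIMMA adjusted p = 0.0574, for 1450668_s_at in Comparison 1 in the NAC, at 0.12). In the NAC 1450668_s_at measured 11.86, 11.96 and 12.08 in CIE Drinking mice and 11.63, 11.84 and 11.97 in Air Drinking mice, with overlap. After removal of group means it correlated with Hspd1 at r = 0.48 in the CeA (adjusted permutation p = 0.00903), −0.01 in the BNST, 0.31 in the HPC, −0.16 in the NAC and −0.38 in the PFC (adjusted permutation p = 0.0413), among 1155 relations between member probesets.

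The median over the members stayed near 0. The median difference over the 22 probesets lay between −0.07 and 0.06 in the 30 region-by-comparison pairs, and that over all probesets between −0.02 and 0.01. The largest number of members called in 1 pair was 2, in Comparison 4 in the NAC (Hsp90aa1 higher, Hspd1 lower) and in Comparison 3 in the CeA (both Hsp90aa1).

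For the wider chaperone network each gene was read by its brightest probeset, and the members read in that way had 1 call in the 30 pairs, that of Hspd1. Of 10 measured Hsp90 co-chaperones among 12 listed, Stub1, the ubiquitin ligase that binds Hsp70 and Hsp90, was lower in the PFC in Comparison 4 by 0.13 (log2 difference −0.13, LIMMA adjusted p = 0.00995), where 0.722% of all probesets were called, and none was called elsewhere. Of 3 measured heat shock factors and regulators among 4, Hsbp1, which binds heat shock factor 1, was higher in the PFC in Comparison 1 by 0.11 (adjusted p = 0.00494), where 1.87% of all probesets were called. No call was made in any of the 30 pairs among 16 other members of the Hsp70 family and its exchange factors, 11 J-domain proteins, 8 subunits of the TRiC chaperonin, 10 mitochondrial chaperones and proteases or 6 small heat shock proteins. In Comparison 4 the medians of these 5 lists ranged over the regions from −0.05 to 0.01, −0.05 to 0.02, −0.03 to 0.03, −0.02 to 0.00 and −0.08 to 0.02 in that order.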

How the data were processed

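Affymetrix mouse expression arrays of 5 brain regions and 4 treatment groups were analysed from the log2 values as deposited by the authors, made by RMA per the submitters' processing notes. By the study's methods the authors normalized each region separately by quantiles, adjusted hybridization batches with ComBat and removed arrays of low quality. Batches are not given in the sources used here, and a hybridization batch could not be fitted. Genes were named from the platform annotation, only where a probeset had 1 symbol. The members and lists were chosen with earlier results of these data known.

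Each region was fitted with limma 3.58.1 (LIMMA) in R 4.3.3, with 1 mean per group, empirical Bayes variances and Benjamini-Hochberg adjustment over all probesets of a region and comparison (43969 to 45037 tested), at 0.01. A 2-factor fit gave vapor, drinking and their interaction, as averages over the other factor. A joint fit of 5 regions (43893 probesets) gave the differences between regions. The arrays' number sets the precision, given as SE, and a p tests a group difference against the spread within groups. Within a region the arrays of a group carry separate mouse numbers. The main joint fit took arrays of the same number in different regions as independent, and it took 1 spread per probeset over all 5 regions. Groups were read from the labels, and no array was left out. The labels reuse mouse numbers between regions, which was taken to mark the same mouse. They hold 51 numbers where the study's methods describe 4 groups of 12 mice, so a number may not mark the same mouse in every region. In the joint fit the number served as an alternative random block, with a consensus correlation of 0.0146 (duplicateCorrelation, statmod 1.5.0).

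Correlations were taken within a region, or between regions of the same mouse, after removal of group means, with 2-sided permutation p from 100000 permutations, adjusted over the relations of a family (Python 3.11.15, numpy 2.4.6, scipy 1.17.1). Promoter windows came from RefSeq. The fit was tested on simulated data. The genes named are all members, the called genes of the chaperone and immediate early lists, and for each gene the 3 others most like it. Alternatives were an adjusted p of 0.05, array weights, removal of dim probesets or of the least correlated array, only the groups compared, renewed quantile normalization, the mean of a gene's probesets, and marker lists as covariates.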

Additional observations from a re-analysis of the deposited data

Results flagged for a closer look

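Only groups of up to 10 arrays were examined for a single distant array, which left the Air NonDrinking groups of the CeA, HPC and BNST. By Dixon's test 1 array lay far below the others in 3 of 66 sets of values (4.55%), near the 1 in 20 that chance gives. They were Hsph1 1423566_a_at in the CeA at 9.77 (next lowest 10.24), Hspd1 1426351_at in the CeA at 11.67 (next lowest 11.87) and Hspb1 1425964_x_at in the HPC at 8.07 (next lowest 8.43).

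The same comparison differed between 2 regions, by a test of the difference, for 6 values. In Comparison 1 these were the NAC minus the CeA for Hspa1b, at −1.51 for 1427126_at, −1.52 for 1427127_x_at and −1.41 for 1452318_a_at, and the PFC minus the BNST for Dnajb1 1416755_at, at −0.18. In Comparison 4 they were the PFC minus the HPC, at −0.39, and the PFC minus the CeA, at −0.38, for Hsp90aa1 1437497_a_at. The Hspa1b values are from probesets of 1 gene.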

How the results depend on the processing

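The 17 called values were recomputed as 138 alternative values, of which 138 kept their direction and 115 passed the threshold. These totals include the main fit read again at an adjusted p of 0.05, whose values could neither turn nor fail. A kept direction can also hide a much smaller value. Hspa1b 1427126_at in the NAC minus the CeA in Comparison 1 went from −1.51 to −0.03 with hippocampal markers as a covariate. Averaging a gene's probesets left 1 of the heat shock genes called in the NAC, 0 in the BNST, 0 in the HPC and 0 for factor terms of the CeA. Hsp90aa1 averaged this way gave Comparison 4 differences of 0.08 (BNST, limma adjusted p = 0.214), 0.11 (HPC, 0.0504) and 0.08 (NAC, 0.147). A fit of the 2 groups alone called 0 genes in the PFC.

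Array quality weights gave 4 called genes in the PFC and 2 in the BNST in group comparisons, and for factor terms 3 (PFC), 2 (BNST), 1 (HPC) and 1 (NAC). An adjusted p of 0.05 gave 2 in the PFC in group comparisons, and in factor terms 2 in the PFC, 1 in the HPC and 1 in the NAC. Differences between regions were then called for 5 genes (Comparison 1), 2 genes (Comparison 2), 3 genes (Comparison 3), 3 genes (Comparison 4) and 1 gene (Comparison 6). Leaving out dim probesets gave 2 in the PFC and 1 in the HPC in factor terms, and leaving out the least correlated array 1 in the HPC. Quantile normalization over all regions gave 1 gene in Comparison 3. The share of all probesets called was not computed for any alternative, covariates included, so these counts cannot be set against a background.

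Covariates, chosen after the data were seen, changed counts too. Hippocampal markers left 0 genes between regions in Comparisons 1 and 4, and excitatory cortex markers left 0 in Comparison 1 and gave 1 in Comparison 2. The neuron list gave 2 genes in the PFC. With the mouse number as a replicate block, the count in Comparison 1 stayed at 2 genes and in Comparison 4 at 1, and the block changed no other call. The cause was not tested for any of these changes, those with covariates included. The 8 to 12 arrays of a group limit the precision of small differences.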

Other observations

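Genes whose signal was most like a member's were ranked by the mean of the 5 correlations within regions after removal of group means, over all arrays and as a description, with the brightest probeset of each member. For Hsp90aa1 1438902_a_at these were Slc25a4 (0.84), the mitochondrial ADP/ATP carrier, Ndfip1 (0.83) and Eif4g2 (0.79). For Hspa8 1455789_x_at they were Mff (0.75), a receptor for mitochondrial fission, Psmb4 (0.75), a proteasome subunit, and Cox5a (0.74), a subunit of cytochrome c oxidase. For Hspb1 they were Igfbp7 (0.75), which vessels express, Fcgrt (0.71) and Anapc13 (0.71).

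Hspa1a and Hspa1b were most like each other (0.82), followed by Tafa1 (0.74 and 0.67), Nrg3 for Hspa1a (0.72) and Shisa6 for Hspa1b (0.64). Hspd1 was most like Ndfip1 (0.67), Cdadc1 (0.66) and G3bp2 (0.64), and Hspe1 like Romo1 (0.63), Ndufa6 (0.57), a subunit of respiratory complex I, and Mrpl15 (0.57), a mitochondrial ribosomal protein. Dnajb1 was most like Dpcd (0.62), Gsta4 (0.58) and Bscl2 (0.57), and Hsph1 like Atp6v1b2 (0.51), Ttc19 (0.51) and Sgtb (0.50).

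For the probesets of Hsp90aa1 and Hspa8 that were called, chosen after their values were seen, the most alike genes were others. They were Naa15 (0.83), Ppp2r5e (0.81) and Atrx (0.80) for Hsp90aa1 1437497_a_at, and Zfp287 (0.56), Etv3 (0.51) and Ube2e1 (0.51) for Hspa8 1431182_at. None of the 3 genes named for either of these probesets was among the 3 named for the brightest probeset of the same gene.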
